A study of Mus musculus with 72 samples.

Results

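The nuclear genes for the structural subunits of the oxidative phosphorylation complexes were examined across 72 arrays of mouse whole blood. Genes were taken by symbol from probe sets with exactly 1 gene symbol: those beginning with Ndufa, Ndufb, Ndufc, Ndufs or Ndufv (complex I, the assembly factors named Ndufaf left out), Sdha to Sdhd (complex II), those beginning with Uqcr and Cyc1 (complex III), those beginning with Cox4 to Cox8 (complex IV) and those beginning with Atp5 (complex V). This gave 83 of the 18193 genes on the array, of which 78 passed a filter on low signal, as did 12588 genes in all. By symbol, 35 of the tested genes belonged to complex I, 4 to complex II, 9 to complex III, 13 to complex IV and 17 to complex V. Levels are log2 signal throughout, and each gene is represented by its brightest probe set.

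The blood came from female Balb/c mice, 9 weeks old at the start and 15 to a group, that drank lead (Pb) as lead acetate trihydrate at 0 (control), 5 (low Pb) or 50 µg/mL (high Pb). Blood was drawn by submandibular bleed after 2 weeks of Pb (7 control, 15 low Pb and 15 high Pb arrays) and again after a further 2 weeks on Pb-free water (7, 15 and 13 arrays). All groups were handled alike: blood was stabilised in RNA-preserving tubes, globin transcript was depleted, and RNA was then amplified with biotin label. Exposed mice were bled at both collections, it is not stated whether controls bled after recovery had also been bled before, and the tests treat all arrays as independent samples. The collections also differ in the age of the mice, and any difference in handling or array run between them cannot be told apart from time.

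Complexes I to IV form the electron transport chain of the inner mitochondrial membrane. Complexes I and II pass electrons from NADH and succinate to coenzyme Q, complex III passes them on to cytochrome c and complex IV to oxygen. Complexes I, III and IV pump protons, and complex V, the ATP synthase, uses the returning protons to make ATP. Mature red cells have no mitochondria, so in blood these transcripts come from leukocytes, platelets and reticulocytes that have not yet cleared theirs. In RNA from whole blood, fewer cells of a type and less RNA per cell cannot be told apart.

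Array medians lay between 4.05 and 4.22, and 0 pairs of arrays were identical. Only markers that passed the filter entered the marker means, so a mean above the filter level of 4.14 follows in part from that choice. The mean over 24 erythroid markers lay between 8.25 and 9.04 in the 6 groups, and the mean over 13 platelet markers between 9.51 and 9.88. Markers of skeletal muscle, a tissue at the bleeding site, had group means between 4.54 and 4.60 over the 5 of 9 that passed the filter. The array with the widest spread of relative signals was replicate 4 of the low Pb recovery group, and its removal is among the alternatives of the closing section.

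The subunit genes were abundant in blood. Their median level was 9.03, against 5.91 over all 12588 tested genes, and 50 of the 78 (64.1%) lay among the top 10% of genes by signal. Signal also depends on the probes, so the order of genes by level is a description. Cox6a1, a small subunit of cytochrome c oxidase, had the highest signal at 12.5. The isoforms known from other tissues differed among themselves. Cox4i2, an isoform best known from lung, had a mean of 3.64, and the striated muscle isoforms Cox7a1 and Cox8b had means of 3.23 and 3.59. The testis isoform Cox7b2 had 1.85. None of these 4 passed the filter, nor did Ndufb4, an accessory subunit of complex I, whose only probe set of its own had 2.71. Cox6a2, the heart and muscle isoform, passed at 5.37, and Ndufa4l2, a relative of Ndufa4 whose symbol places it in complex I, was lowest of the tested genes at 4.66. By contrast Cox6b2, known from testis, had 9.02, and Cox8c, also known from testis, had 7.52. A further 6 symbols, Ndufa11, Ndufa11b, Ndufb4b, Ndufb4c, Ndufs6 and Ndufs6b, were only on probe sets shared with other genes and were not analysed here.

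**Figure D1:**
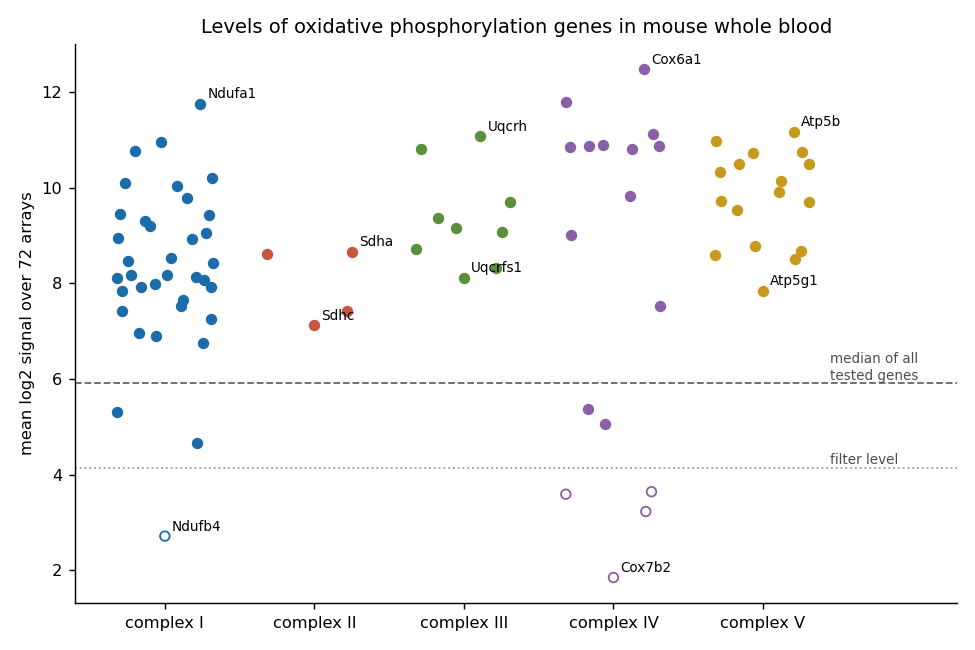
Each point is 1 of the 83 genes, placed by complex on the x axis and by its mean log2 signal over 72 arrays on the y axis; filled points passed the filter, open points did not, and the highest and lowest gene of each complex is named. Most points lie above the dashed line, the median of all tested genes at 5.91, and the 5 open points lie below the dotted filter level of 4.14.

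The first question was whether the subunit genes differed between Pb doses and control at the same collection. After exposure no member passed the threshold (limma, Benjamini-Hochberg adjusted p under 0.05) at either dose. In the high Pb group 0 of 78 were called, beside 0.0238% of all tested genes, and 13 had an unadjusted p under 0.05. The median difference of the members was -0.06, against -0.02 over all genes, and 64 of 78 lay below control. After quantile normalization, centring of arrays and cyclic loess the medians were -0.03, -0.03 and -0.03, and 55, 51 and 45 lay below. As deposited, 30 of 35 complex I genes and all 17 complex V genes lay below control, but under these scalings 26, 24 and 19 of the 35 and 13, 12 and 11 of the 17 did. Cell markers differed in the same comparison without a call: 12 of 12 B cell and 13 of 13 T cell markers lay below control and 22 of 24 erythroid markers above, and their part in the result was not tested beyond the covariate fit of the closing section. The members of smallest p were Ndufab1, the mitochondrial acyl carrier protein of complex I, at -0.24 (SE 0.08, adjusted p = 0.315), Sdhd, a membrane anchor of complex II, at -0.22 (SE 0.08, adjusted p = 0.343), and Ndufa9, an accessory subunit of complex I, at -0.27 (SE 0.09, adjusted p = 0.351). Ndufab1 passed after quantile normalization (-0.21, adjusted p = 0.0341) and after cyclic loess (-0.20, adjusted p = 0.0365).

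In the low Pb group 0 of 78 were called after exposure, beside 1.3% of all tested genes, and 5 had an unadjusted p under 0.05. The median difference was -0.02, with 34 genes above and 44 below control. Cox6b2 had the smallest p. Its lowest, median and highest levels were 8.82, 9.35 and 9.70 in controls, 8.48, 8.95 and 9.33 with low Pb and 8.92, 9.30 and 9.73 with high Pb. The low Pb arrays were shifted down against both other groups, with overlapping ranges. The difference from control was -0.34 (SE 0.11, adjusted p = 0.0981), and it passed the threshold without control replicate 1 (-0.39, adjusted p = 0.0431) or without control replicate 3 (-0.42, adjusted p = 0.021), with array weights (-0.43), with 3' to 5' covariates (-0.45) and with the replicate number as a fixed block (-0.41). The value was -0.12 once cell marker means were covariates. In the same comparison 13 of 13 platelet markers were lower (1 called, median -0.30), and 5 of 11 monocyte and 4 of 12 B cell markers rose. Ndufa3 (-0.15, adjusted p = 0.184) and Cox5a, a matrix-facing subunit of complex IV (-0.19, adjusted p = 0.219), followed. Both comparisons share the same 7 controls.

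After recovery 0 of 78 were called at either dose, beside 0.429% of all tested genes with high Pb and 0% with low Pb, and 2 had an unadjusted p under 0.05 in each. With high Pb the median difference was -0.04 and the smallest p values belonged to Cox6b2 at 0.26 (adjusted p = 0.354), Uqcrb, a small subunit of complex III, at -0.20 (adjusted p = 0.382) and Sdhd at -0.16 (adjusted p = 0.456). With low Pb the median was -0.03, and Cox6c, Atp5mpl and Atp5b had differences of -0.17, -0.18 and -0.16, each with an adjusted p of 1. The dose effects did not pass a test of difference between the collections either. The interaction called 0 of 78 at each dose, beside 0.00794% of all genes for high Pb and 0.0238% for low Pb. For each dose 1 member had an unadjusted p under 0.05, Cox5a in both, at 0.22 with high Pb and 0.25 with low Pb.

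Between the 2 doses after exposure 10 of 78 members were called, 12.8% of them against 18.7% of all tested genes, and 25 had an unadjusted p under 0.05. With high Pb 9 fell (11.5%, against 12.6% of all genes) and 1 rose (1.28%, against 6.04%). The median difference of the members was -0.05, against -0.03 over all genes, and was -0.02, 0.00 and -0.01 after quantile normalization, centring and cyclic loess. The split of calls depended on scaling: 3 members were higher and 9 lower after quantile normalization, and 4 higher and 5 lower after either centring or cyclic loess. Over all tested genes the split moved too, from 760 higher and 1589 lower as deposited to 1177 and 1415 after quantile normalization. It was 1212 and 1142 after centring and 1138 and 1191 after cyclic loess. The 9 members called lower as deposited were spread over complexes I (4 of 35), II (2 of 4), III (1 of 9) and V (2 of 17).

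Uqcrc1, a core protein of complex III, had the lowest difference. Its lowest, median and highest levels were 8.23, 8.63 and 9.00 with low Pb and 7.93, 8.44 and 8.67 with high Pb, and 3 of 15 high Pb arrays lay below every low Pb array. The groups overlapped, and the difference was -0.28 (SE 0.08, limma adjusted p = 0.00844). In complex I, Ndufc2 fell by 0.26 (adjusted p = 0.015), Ndufb6 by 0.22 (adjusted p = 0.0146), Ndufb8 by 0.16 (adjusted p = 0.0479) and Ndufa7 by 0.15 (adjusted p = 0.0165), all accessory subunits. In complex II, Sdhb, the iron-sulfur subunit that hands electrons on from Sdha, fell by 0.19 (adjusted p = 0.0445) and its membrane anchor Sdhd by 0.18 (adjusted p = 0.033). In complex V, Atp5d, the delta subunit of the central stalk, fell by 0.18 (adjusted p = 0.0377), as did Atp5pb, subunit b of the peripheral stalk (adjusted p = 0.0315). Cox6b2 was the only called member that was higher with high Pb, by 0.35 (SE 0.09, adjusted p = 0.00299), and 7 of 15 high Pb arrays lay above every low Pb array. Of the 10 called members 7 had another kept probe set, and 6 of these had the same sign on all their other sets. Ndufc2 had another set of opposite sign. On second-brightest probe sets 3 of the 10 calls were made again, those of Atp5d, Cox6b2 and Uqcrc1. Cox6b2 and Uqcrc1 have 1 probe set each.

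These calls moved with other measurements. The mean of the hybridisation controls was 9.81 with low Pb and 10.2 with high Pb, and that of 18S ribosomal RNA was 7.00 and 7.79. Of 12 B cell markers 11 fell in the same comparison, 10 of 11 monocyte markers fell, 10 of 13 platelet markers rose and 7 of 24 erythroid markers rose. The mean B cell marker level was 8.41 with low Pb (range over arrays 7.96 to 8.90) and 7.72 with high Pb (7.36 to 8.37). With the hybridisation controls as a covariate 0 members were called, beside 5.54% of all tested genes. The median difference of the members was then -0.055, and Uqcrc1 and Cox6b2 had -0.25 and 0.24 (adjusted p of 0.0681 and 0.083). With the cell marker means 0 were called, beside 0.365% of all tested genes, the median was 0.01 and Uqcrc1 and Cox6b2 had -0.04 and 0.01. With 18S ribosomal RNA 2 were called, Cox6b2 and Uqcr11, beside 7.09% of all tested genes, and the median was -0.03. The count was 5 without low Pb replicate 14 or without high Pb replicate 1, 6 or 13, 6 without low Pb replicate 3, 4 or 7, 16 without low Pb replicate 12 and 17 without high Pb replicate 12. After recovery 0 of 78 were called between the doses, as were 0% of all genes, and 15 members had an unadjusted p under 0.05. Cox6b2 had nearly the same difference as before, 0.36 with an adjusted p of 0.125. The test of whether the difference between doses changed from one collection to the other called 0 of 78 members, beside 0.0636% of all genes.

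**Figure D2:**
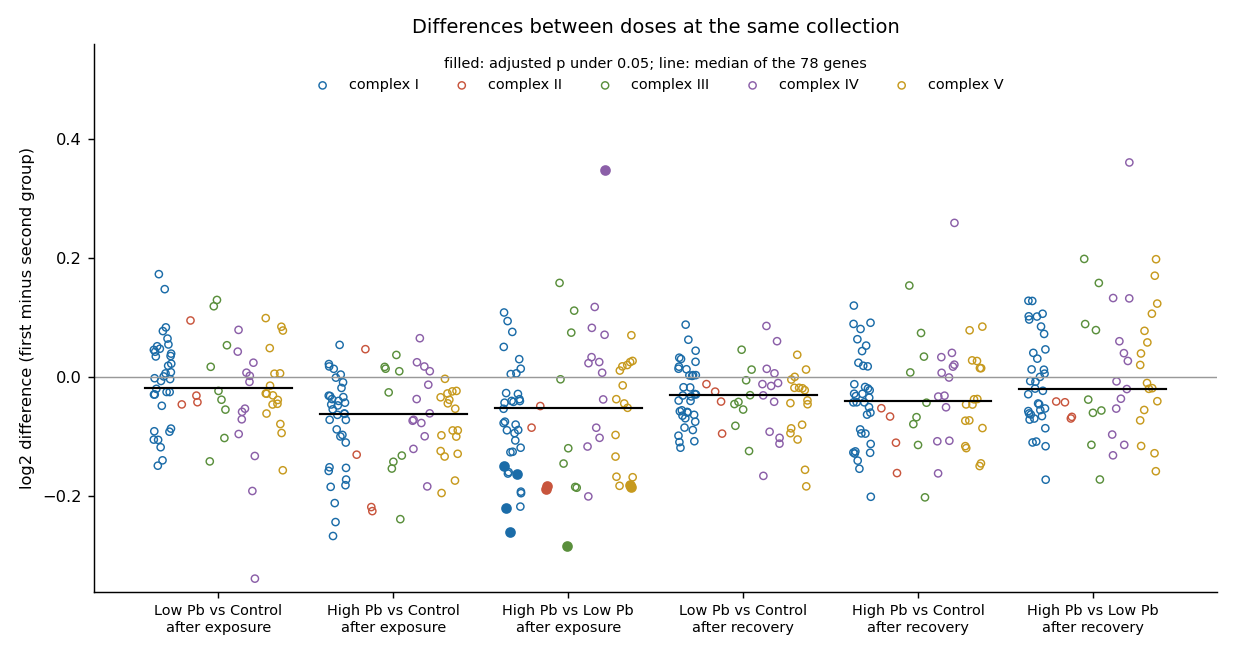
Log2 differences of the 78 tested genes are shown on the y axis for 6 comparisons of dose, coloured by complex; filled points have an adjusted p under 0.05 and the black lines are medians over the genes. Filled points occur between the doses after exposure alone, 9 below 0 and Cox6b2 above it at 0.35, and every median lies between -0.06 and -0.02.

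The second question was how levels differed between the recovery and the exposure collection within each dose group, controls included. Here many genes of the whole array changed, subunit genes among them, in both directions and at every dose. Values given in threes follow the order control, low Pb and high Pb, and a positive difference means higher after recovery. In controls 19 rose and 11 fell (38.5% called, against 36.1% of all tested genes), with low Pb 26 rose and 23 fell (62.8%, against 44.1%), and with high Pb 31 rose and 14 fell (57.7%, against 49.2%). Among all tested genes 22.5%, 26.2% and 29.3% were higher in the 3 dose groups, and 13.6%, 17.9% and 19.8% were lower. The median difference of the members was 0.02 in controls, 0.01 with low Pb and 0.07 with high Pb, against -0.01, -0.00 and -0.01 over all genes. With a stricter filter on low signal 32, 49 and 45 members were called, beside 41.2%, 49.8% and 54.4% of 10504 genes. The medians over those genes were 0.025, 0.023 and 0.034. In controls the counts were 20 higher and 19 lower after quantile normalization, 16 and 23 after centring, and 18 and 21 after cyclic loess. With low Pb they were 28 and 26, 26 and 27, and 25 and 30, and with high Pb 30 and 24, 28 and 25, and 27 and 28. Over all tested genes the counts in controls were 2687 and 2082, 2427 and 2607, and 2538 and 2235 under the same scalings. Those with low Pb were 3155 and 2433, 2907 and 2953, and 2970 and 2755. For high Pb the scalings gave 3399 and 2926, 3106 and 3882, and 3139 and 3149 genes. The member medians in controls were 0.00, -0.04 and -0.04 under these scalings, those with low Pb -0.03, -0.03 and -0.06, and those with high Pb 0.02, 0.00 and -0.02, so the sign of each depended on scaling.

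Many of these genes moved alike at the 3 doses. In all 3 groups 19 of 78 members rose (24.4%, against 18.7% of all genes), 9 fell (11.5%, against 7.77%), and 22 (28.2%) were called in none. The counts rising and falling were 20 and 15 after quantile normalization, 16 and 20 after centring, 18 and 19 after cyclic loess, 14 and 14 with 18S ribosomal RNA and 22 and 5 with 3' to 5' differences as covariates, 28 and 14 with array weights, and 4 and 2 with cell marker means. The matching shares over all genes were not counted for these alternatives, so a move of the members cannot be set against them. In 0 cases was a member called up at 1 dose and down at another, beside 0.0636% of all genes. A call at 1 dose alone is not shown to differ from the other doses, since the interaction tests called 0 members. Counts by complex given below for all 3 groups are small and are to be read against the 18.7% and 7.77% of all genes. The members that rose in all 3 had a median level of 8.67, and those that fell had 10.75. Over all arrays the mean of the 19 rising genes lay between 8.46 and 9.11 in the exposure collection and between 8.80 and 9.48 after recovery. These genes were chosen for their rise in the same arrays, so the higher mean follows from that choice and the ranges only describe the overlap.

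**Figure D3:**
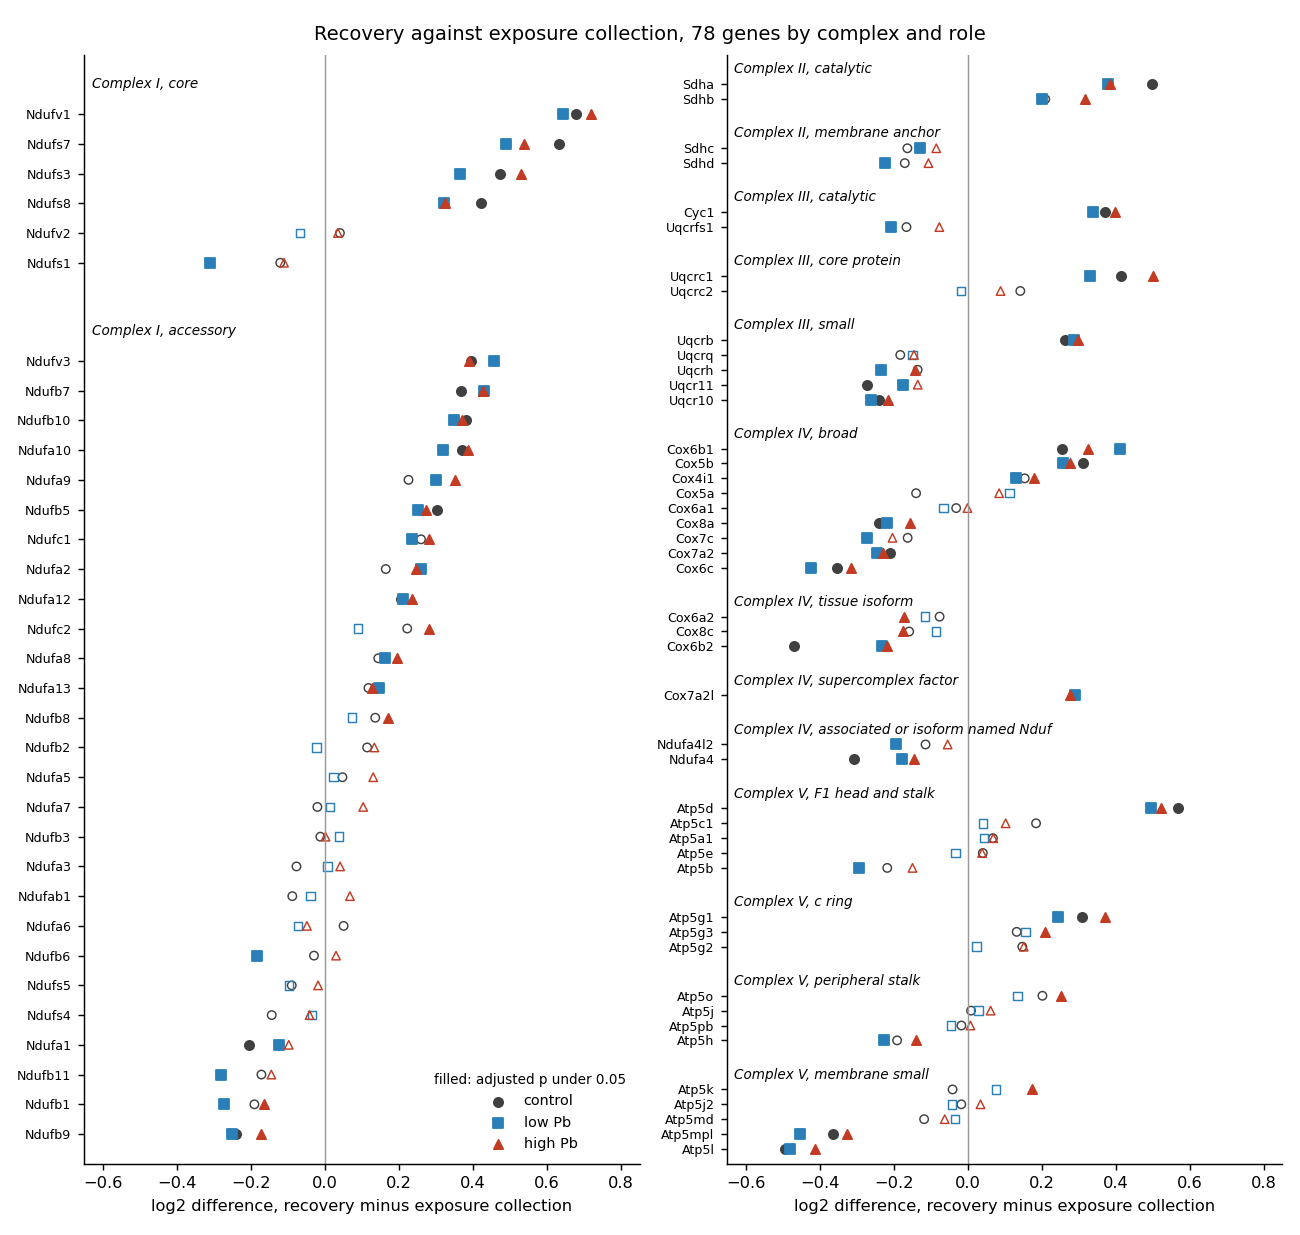
Log2 difference of recovery minus exposure collection on the x axis for each of the 78 tested genes, listed by complex and role, with circles for controls, squares for low Pb and triangles for high Pb; filled symbols have an adjusted p under 0.05. The symbols of a gene often lie close together, but those of Cox6b2 and Ndufs1 lie further apart and those of Cox5a differ in sign. Ndufv1 is highest at 0.68, 0.64 and 0.72 and Atp5l lowest in controls at -0.49.

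The core subunits of complex I that the nucleus encodes make up the arm that takes electrons from NADH to coenzyme Q. Of the 6 core subunits encoded in the nucleus and tested, 4 rose in all 3 dose groups, and their median differences as a group were 0.45 in controls, 0.34 with low Pb and 0.43 with high Pb. Ndufv1, which binds NADH and the flavin, had lowest, median and highest levels of 7.26, 7.51 and 8.01 in control arrays after exposure and 7.97, 8.12 and 8.60 after recovery. With low Pb the same values were 7.21, 7.58 and 7.94, then 7.77, 8.17 and 8.81. With high Pb they were 7.06, 7.36 and 7.78, then 7.59, 8.12 and 8.53. The recovery arrays were the high ones, and 6 of 7, 11 of 15 and 12 of 13 lay above every exposure array of the same dose. Ndufv1 rose by 0.68 (SE 0.13, adjusted p = 2.91e-05), 0.64 (SE 0.09, adjusted p = 1.79e-08) and 0.72 (SE 0.09, adjusted p = 1.5e-09), or 1.60-fold, 1.56-fold and 1.65-fold. Its 2 other probe sets moved the same way, by 0.84, 0.69 and 0.81 and by 0.42, 0.36 and 0.45.

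Ndufs7, which holds the last iron-sulfur cluster before coenzyme Q, had lowest, median and highest levels of 7.79, 8.03 and 8.52 in controls after exposure and 8.42, 8.68 and 9.17 after recovery. The collections overlapped narrowly, and 5 of 7 recovery arrays lay above all exposure arrays. Its differences in control, low Pb and high Pb mice were 0.63, 0.49 and 0.54 (adjusted p of 7.99e-06, 3.25e-07 and 5.99e-08), and its second probe set gave 0.43, 0.32 and 0.42. Ndufs3, part of the module that binds coenzyme Q, rose by 0.47, 0.36 and 0.53, and Ndufs8, another iron-sulfur subunit, by 0.42, 0.32 and 0.32. The other 2 core subunits did not follow. Ndufs1, the largest core subunit, fell with low Pb alone (-0.31, adjusted p = 0.000315) and had -0.12 and -0.11 in controls and with high Pb (adjusted p of 0.375 and 0.218), and Ndufv2, the partner of Ndufv1, had 0.04, -0.07 and 0.04 with no call.

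Of the 27 accessory subunits of complex I tested, 6 rose in all 3 groups and 1 fell, beside 18.7% and 7.77% of all tested genes. Ndufv3, a small subunit of the module that oxidises NADH, rose by 0.40, 0.46 and 0.39, and 7 of 7, 13 of 15 and 10 of 13 recovery arrays lay above every exposure array. Ndufb7 (0.37, 0.43 and 0.43), Ndufb10 (0.38, 0.35 and 0.37) and Ndufa10 (0.37, 0.32 and 0.39), which all belong to the membrane arm, rose as well, together with Ndufb5 and Ndufa12. With low Pb the other probe set of Ndufb5 had the opposite sign. Ndufa10 had a second, dim probe set at -0.16, 0.01 and -0.11. Ndufb9 fell by 0.24, 0.25 and 0.17, but its other 2 probe sets gave values from -0.05 to 0.10. Ndufb11 fell with low Pb (-0.28, adjusted p = 0.000222) on its brightest probe set, while its other 2 sets gave 0.08 and 0.15 in the same comparison.

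Of the 4 subunits of complex II, 1 rose in all 3 groups. Sdha, the flavoprotein that oxidises succinate, had lowest, median and highest levels of 8.18, 8.34 and 8.76 in controls after exposure and 8.60, 8.94 and 9.18 after recovery. With low Pb they were 8.23, 8.50 and 8.77, then 8.57, 8.90 and 9.13, and with high Pb 8.22, 8.44 and 8.75, then 8.59, 8.88 and 9.02. Recovery arrays were again the high ones, with 5 of 7, 9 of 15 and 10 of 13 above all exposure arrays of their dose. Sdha rose by 0.50 (SE 0.09, adjusted p = 7.52e-06), 0.38 (SE 0.06, adjusted p = 4.04e-07) and 0.38 (SE 0.06, adjusted p = 4.45e-07), and its second kept probe set gave 0.27, 0.16 and 0.23. Sdhb rose with low Pb (0.20) and high Pb (0.32) and had 0.21 in controls (adjusted p = 0.0919). The membrane anchors Sdhc and Sdhd fell with low Pb, by 0.13 and 0.22, and had no call in controls (-0.16 and -0.17) or with high Pb (-0.09 and -0.11). The second probe set of Sdhc gave 0.08, -0.03 and 0.08, and that of Sdhd 0.00, 0.07 and 0.14.

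In complex III, 3 of 9 subunits rose in all 3 groups and 1 fell. Uqcrc1 had lowest, median and highest levels of 7.93, 8.44 and 8.67 with high Pb after exposure and 8.68, 8.79 and 9.28 after recovery, so all 13 recovery arrays lay above the exposure arrays. In controls (8.25, 8.49 and 8.93, then 8.64, 8.85 and 9.24) and with low Pb (8.23, 8.63 and 9.00, then 8.52, 8.97 and 9.37) the collections overlapped. Uqcrc1 rose by 0.41, 0.33 and 0.50 (adjusted p of 0.00334, 0.000392 and 5.66e-07). Cyc1, which carries electrons to cytochrome c, rose by 0.37, 0.34 and 0.40, and Uqcrb by 0.26, 0.29 and 0.30, although the second probe set of Uqcrb gave 0.01, 0.05 and 0.09. Uqcrc2, the other core protein, was called in no group (0.14, -0.02 and 0.09). Uqcrfs1, the Rieske iron-sulfur protein, was called with low Pb alone (-0.21, adjusted p = 0.0125) and had -0.17 and -0.08 in the other groups. Uqcr10, a small membrane subunit, fell by 0.24, 0.26 and 0.22, and Uqcr11 fell in controls and with low Pb, by 0.27 and 0.18. The high Pb call of Uqcr10 was lost on its second-brightest probe set and with 18S ribosomal RNA or cell marker means as covariates. Uqcrh, the hinge protein beside Cyc1, fell with low Pb (-0.23) and high Pb (-0.14) and had -0.14 in controls.

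Of the 9 broadly expressed complex IV subunits tested, 2 rose and 3 fell in all 3 groups. Cox5b, which faces the matrix, rose by 0.31, 0.26 and 0.28, with 6 of 7, 12 of 15 and 12 of 13 recovery arrays above all exposure arrays. Cox6b1, which faces the side of cytochrome c, rose by 0.25, 0.41 and 0.32, and its second probe set gave 0.05, 0.19 and 0.18. Cox4i1, the main form of subunit 4, rose with low Pb (0.13) and high Pb (0.18) and had 0.15 in controls (adjusted p = 0.0895). Cox5a was called in no group (-0.14, 0.11 and 0.08).

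The small membrane subunit Cox6c had lowest, median and highest levels of 11.88, 12.06 and 12.21 in controls after exposure and 11.48, 11.62 and 11.82 after recovery, and all 7 recovery arrays lay below the exposure arrays. With low Pb the values went from 11.76, 11.94 and 12.18 to 11.24, 11.51 and 11.81, and 14 of 15 recovery arrays lay below. With high Pb (11.65, 11.96 and 12.21, then 11.34, 11.64 and 11.98) the collections overlapped more widely. Cox6c fell by 0.35, 0.42 and 0.31 (adjusted p of 0.000648, 1.17e-08 and 1.05e-05), and its second probe set gave -0.24, -0.31 and -0.13. Cox7a2 fell by 0.21, 0.24 and 0.23 and Cox8a by 0.24, 0.22 and 0.16, and the second probe set of each was lower in all 3 groups too.

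Members whose symbols fit the rule without being ordinary subunits were mixed. Ndufa4, named for complex I but found with complex IV, had a highest control level of 11.03 and a lowest of 10.81 after exposure, and lay between 10.52 and 10.75 after recovery, with no overlap in controls. It fell by 0.31, 0.18 and 0.14 (adjusted p of 0.000941, 0.0038 and 0.0215). Its relative Ndufa4l2 fell with low Pb alone (-0.19, adjusted p = 0.0168). Cox7a2l, which joins complexes III and IV into supercomplexes, rose by 0.28, 0.29 and 0.28. Cox6b2 fell by 0.47, 0.23 and 0.22 (adjusted p of 0.00226, 0.0225 and 0.035), but with cell marker means as covariates its differences were 0.13, 0.12 and 0.23. The call with high Pb was also lost with 18S, hybridisation or 3' to 5' covariates, without high Pb exposure replicate 10, 11 or 13 and without high Pb recovery replicate 7 or 8. Cox6a2 and Cox8c fell with high Pb alone, by 0.17 and 0.18.

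In complex V, 1 of 5 subunits of the F1 head and central stalk rose in all 3 groups, Atp5d. Its lowest, median and highest levels with high Pb were 9.55, 9.78 and 9.96 after exposure and 9.99, 10.31 and 10.53 after recovery. All 13 of these recovery arrays lay above the exposure arrays, as did 5 of 7 in controls and 12 of 15 with low Pb. Atp5d rose by 0.57, 0.49 and 0.52 (adjusted p of 3.85e-06, 5.68e-09 and 2.29e-09), and its second probe set gave 0.56, 0.43 and 0.59. Of its catalytic partners Atp5b, the beta subunit, fell with low Pb (-0.29, adjusted p = 0.000561) and had -0.22 and -0.15 in controls and with high Pb. Atp5a1, the alpha subunit, had 0.07, 0.04 and 0.07 on its brightest probe set, with no call. Its other sets were higher after recovery, the nearly as bright one by 0.26, 0.19 and 0.21 and a dim one by 0.50, 0.32 and 0.22. Atp5g1, 1 of 3 genes for the membrane c ring, rose by 0.31, 0.24 and 0.37.

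Of the 5 small membrane subunits of the synthase, 2 fell in all 3 groups, Atp5j2 and Atp5md were called in none and Atp5k rose with high Pb (0.17). Atp5l, subunit g, had lowest, median and highest levels of 10.66, 11.11 and 11.18 in controls after exposure and 10.29, 10.40 and 10.75 after recovery. With low Pb they were 10.65, 10.98 and 11.25, then 10.20, 10.44 and 10.76, and with high Pb 10.61, 10.98 and 11.30, then 10.11, 10.52 and 11.08. The recovery arrays were the low ones, with 6 of 7, 12 of 15 and 8 of 13 below all exposure arrays. Atp5l fell by 0.49, 0.48 and 0.41 (adjusted p of 0.000685, 1.47e-06 and 3.37e-05), and Atp5mpl, a small proteolipid of the same membrane part, by 0.36, 0.45 and 0.33. None of the 4 peripheral stalk subunits was called in all 3 groups.

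**Figure D4:**
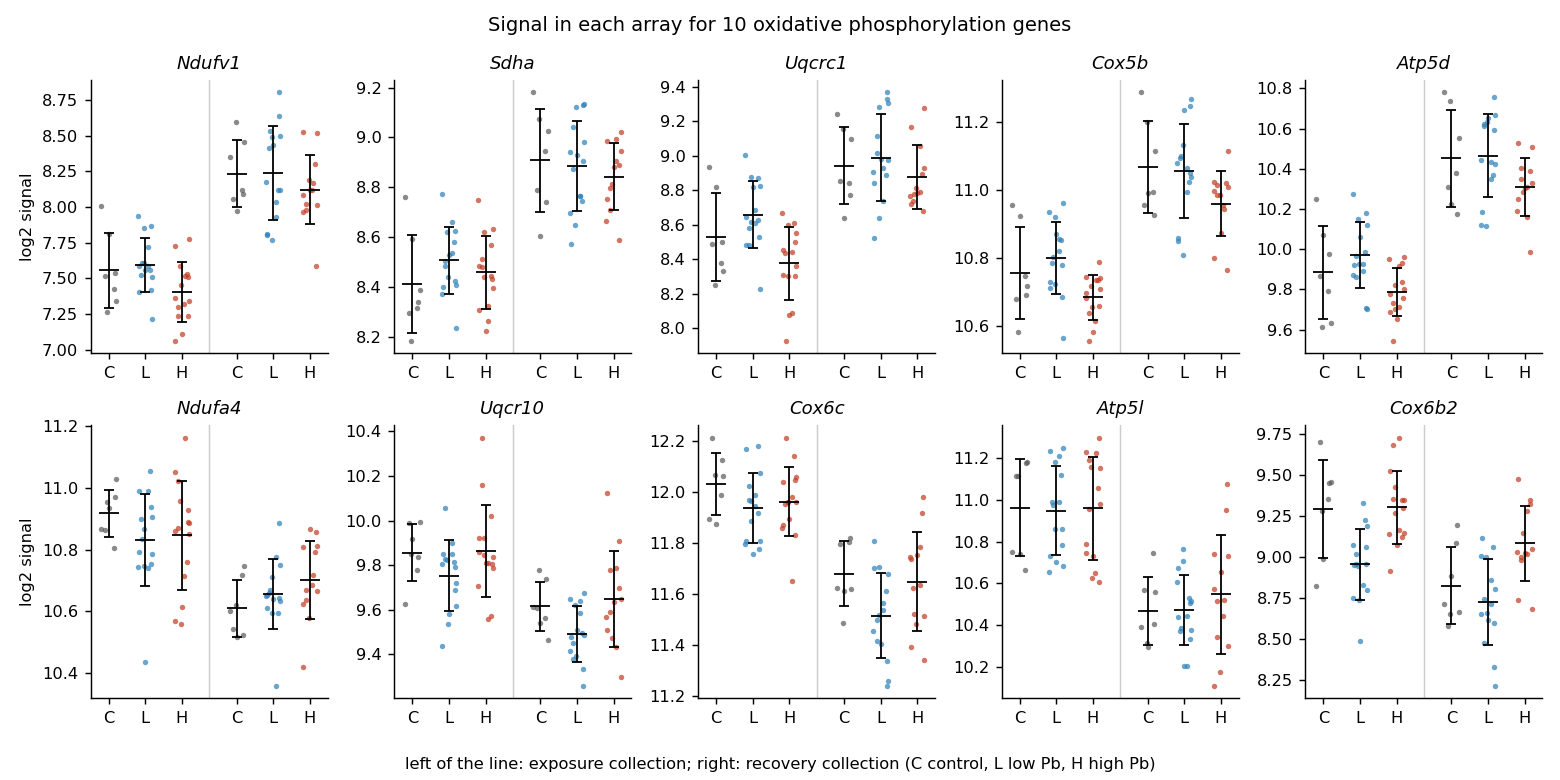
Log2 signal in each of the 72 arrays (points) for 10 genes, 5 that rose and 5 that fell between the collections at all 3 doses, by dose (C control, L low Pb, H high Pb) and collection, with black marks for the mean and bars for the SD. In Ndufv1, Sdha, Uqcrc1, Cox5b and Atp5d the groups right of the line sit higher, and in Ndufa4, Uqcr10, Cox6c, Atp5l and Cox6b2 lower. Of these genes Cox6b2, Uqcrc1 and Atp5d were also called between high and low Pb after exposure.

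Other measurements changed between the same collections. The mean over 24 erythroid markers went from 8.84, 8.82 and 9.04 to 8.26, 8.25 and 8.59 in control, low Pb and high Pb mice, and 15, 19 and 16 of them fell with 0 rising. The mean over 12 B cell markers went from 7.96, 8.41 and 7.72 to 8.98, 8.98 and 8.70, and 12, 11 and 12 rose. Monocyte markers rose in 9, 4 and 8 of 11. Of 13 platelet markers 1, 5 and 3 rose and 7, 1 and 2 fell. The difference between 3' and 5' probe sets of Gapdh, a measure of RNA length, went from 0.54, 0.53 and 0.56 to 0.91, 0.92 and 0.84, and 18S ribosomal RNA went from 7.00, 7.00 and 7.79 to 6.38, 6.33 and 6.43.

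With the marker means of the cell types as covariates, 4 of the 30 calls in controls, 26 of 49 with low Pb and 12 of 45 with high Pb were made again. In that fit 6, 30 and 19 of the 78 members were called, beside 13.1%, 31.7% and 29.3% of all tested genes. The counts became 4 higher and 2 lower, 22 and 8, and 13 and 6. Members called higher in all 3 dose groups were then Ndufv1, Ndufs7, Ndufb7 and Sdha, all among the 19, and members called lower were Sdhd and Uqcrfs1, which were not among the 9. With the 3' to 5' differences as covariates the counts were 23 higher and 10 lower, 29 and 10, and 39 and 7. Over all tested genes that fit gave 2922 and 1476, 3395 and 1757, and 3951 and 2342 (34.9%, 40.9% and 50% called). With 18S ribosomal RNA the member counts were 14 and 15, 22 and 23, and 17 and 17. Those over all tested genes were 2410 and 1643, 2680 and 2153, and 2388 and 1954 (32.2%, 38.4% and 34.5% called). The part of RNA length and of ribosomal RNA in the results was not otherwise tested. Of the called members with another kept probe set, 17 of 18 in controls, 19 of 25 with low Pb and 22 of 26 with high Pb had the same sign on all their other sets.

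The subunit genes varied together. Across the 72 arrays, after removal of group means, the median correlation over 3003 pairs of members was 0.40, against 0.089 between members and all other genes. Pairs within a complex had 0.485 and pairs between complexes 0.354. Pairs among the 19 genes that rose had 0.705, pairs among the 9 that fell had 0.583, and pairs of 1 gene from each set had -0.204. All points come from the same arrays and share their normalization and cell makeup, so these values are descriptions. The spread within groups was similar to that of other genes, with a median SD of 0.174 against 0.189, from 0.109 for Ndufa3 to 0.267 for Ndufb10.

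Promoters of nuclear oxidative phosphorylation genes are known for sites of the factors NRF1, GABP and YY1. In windows from 250 bases before to 50 bases after the start, from RefSeq (GRCm38.p6), 67 of the 83 members had a sequence. The NRF1 letters, GCGCA and GCGC with any 1 base between them, occurred on either strand in 15 of 67 (22.4%), against 10.6% of 10098 tested genes and 5.19% of all 27025 genes with a window. The ETS letters CCGGAAG, the kind GABP binds, occurred in 17 (25.4%), against 18.7% and 9.93%, and the YY1 letters AAGATGGC in 9 (13.4%), against 5.01% and 3.19%. By complex the NRF1 letters were in 6 of 15 windows of complex V, 5 of 32 of complex I, 2 of 3 of complex II, 1 of 5 of complex III and 1 of 12 of complex IV. Among the 17 genes with a window that rose between the collections at all doses, 2 had the NRF1 letters, 4 the ETS letters and 1 the YY1 letters, and among the 6 that fell the counts were 0, 2 and 0. The ETS and YY1 letters can share an AAG, so 1 stretch can count for both, and a match describes the window only.

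Shown are the windows of Sdha and Uqcrc1, the 2 rising genes with the NRF1 letters, and of Atp5l and Cox8a, the 2 falling genes with the ETS letters. Each is printed 5′ to 3′ on the strand of its gene, and capitals mark the matches to the NRF1 letters or, for Atp5l and Cox8a, to the ETS letters, on either strand. Sdha (chr13:74350191-74350490, minus strand) has 3 matches, at -98, -55 and -10 from the start. Uqcrc1 (chr9:108936398-108936697, plus strand) has 2 just after the start, at 6 and 31. Atp5l (chr9:44920693-44920992, minus strand) has 2, at -212 and 25, and Cox8a (chr19:7217567-7217866, minus strand) has 2, at -5 and 33.
Sdha: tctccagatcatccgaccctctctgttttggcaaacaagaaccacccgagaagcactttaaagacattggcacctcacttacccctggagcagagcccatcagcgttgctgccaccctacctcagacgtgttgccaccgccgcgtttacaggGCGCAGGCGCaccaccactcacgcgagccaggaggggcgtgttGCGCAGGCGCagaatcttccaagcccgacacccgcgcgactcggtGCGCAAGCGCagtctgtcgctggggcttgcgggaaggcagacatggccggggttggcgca
Uqcrc1: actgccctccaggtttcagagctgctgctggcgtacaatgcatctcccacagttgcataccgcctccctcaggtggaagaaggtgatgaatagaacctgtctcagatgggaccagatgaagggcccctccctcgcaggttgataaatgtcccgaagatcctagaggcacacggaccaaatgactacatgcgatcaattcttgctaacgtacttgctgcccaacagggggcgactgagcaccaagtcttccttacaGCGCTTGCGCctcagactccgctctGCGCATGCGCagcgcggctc
Atp5l: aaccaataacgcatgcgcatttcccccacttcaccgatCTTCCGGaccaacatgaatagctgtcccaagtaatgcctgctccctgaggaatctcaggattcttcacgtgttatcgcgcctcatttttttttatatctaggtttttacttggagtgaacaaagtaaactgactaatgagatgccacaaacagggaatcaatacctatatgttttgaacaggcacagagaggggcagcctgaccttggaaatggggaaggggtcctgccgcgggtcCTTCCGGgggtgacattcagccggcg
Cox8a: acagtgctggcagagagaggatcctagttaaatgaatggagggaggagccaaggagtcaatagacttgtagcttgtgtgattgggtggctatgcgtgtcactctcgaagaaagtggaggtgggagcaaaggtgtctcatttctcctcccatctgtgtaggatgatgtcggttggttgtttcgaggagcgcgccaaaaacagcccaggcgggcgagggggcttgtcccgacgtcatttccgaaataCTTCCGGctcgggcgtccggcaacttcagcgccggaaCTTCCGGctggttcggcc

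The genes around the complexes were followed with lists of related pathways. Of 32 tested assembly factors, which build the complexes without staying in them, 12 rose between the collections in each dose group and 4, 3 and 3 fell. Over all tested genes the shares were 22.5%, 26.2% and 29.3% higher and 13.6%, 17.9% and 19.8% lower, against which the counts of every list are to be read. Ttc19, needed for complex III, rose by 0.74, 0.55 and 0.54. Of 13 genes for mobile carriers and coenzyme Q synthesis 4, 4 and 6 rose and 0 fell. Of 12 regulators of these genes 5, 5 and 6 rose and 1, 2 and 2 fell: Nrf1 rose by 0.47, 0.39 and 0.49 and Yy1 fell by 0.52, 0.48 and 0.49. In the tricarboxylic acid cycle, which supplies NADH and succinate, 6, 5 and 5 of 15 genes rose and 0, 2 and 1 fell, with Idh3b at 0.50, 0.37 and 0.45.

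Of 14 glycolysis genes 6, 10 and 11 rose and 0 fell, and Pfkl, the liver-type phosphofructokinase, rose by 0.50, 0.44 and 0.62. Of 19 genes for mitochondrial protein import 3, 4 and 5 rose and 4, 5 and 4 fell, with Timm44, part of the import motor, at 0.51, 0.40 and 0.48. Of 8 mitophagy genes 0 rose and 2, 4 and 3 fell. Pink1, the kinase that marks damaged mitochondria, fell by 0.40, 0.43 and 0.44.

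With high against low Pb after exposure, where 12.6% of all genes were lower and 6.04% higher, 3 of 32 assembly factors, 4 of 13 carrier and coenzyme Q genes and 3 of 15 tricarboxylic acid cycle genes fell and 0 rose. Fh1, fumarase, fell by 0.42 (adjusted p = 0.00171) and Cs, citrate synthase, by 0.26 (adjusted p = 0.00569). Of the 19 import genes 6 fell and 1 rose, Hspd1, the matrix chaperonin, by 0.40 (adjusted p = 1.12e-05). Tfam, which packages mitochondrial DNA, fell by 0.24 (adjusted p = 0.0457), and Hk2, a hexokinase, by 0.30 (adjusted p = 0.000702). With cell marker means as covariates Hspd1 alone was called in these 7 lists. With hybridisation controls Coq7, Fh1, Hspd1, Hk1 and Hk2 were called, and with 18S ribosomal RNA these and Sdhaf2. Over all tested genes 0.365% were called with cell marker means, 5.54% with hybridisation controls and 7.09% with 18S ribosomal RNA. With high Pb against control after recovery, Cox16, an assembly factor of complex IV, fell by 0.57 (SE 0.11, adjusted p = 0.00316) and Hk1 rose by 0.26 (adjusted p = 0.0476). Cox16 had -0.46 with low Pb in the same comparison (adjusted p = 0.342), against the same controls.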

How the data were processed

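Whole-blood RNA was measured on 72 oligonucleotide arrays. The authors deposited log2 signals summarised with RMA, per the submitters' processing notes. Which software and background correction it used is not given in the sources used here. Of 45101 probe sets, 34945 had exactly 1 gene symbol in a table of platform annotation. A probe set was kept if above 4.14, the median of all values, in at least 7 arrays, and each gene was taken from its brightest one. Group means of all 6 groups were fitted with limma 3.58.1 (statmod 1.5.0, R 4.3.3), with 66 residual degrees of freedom, with Benjamini-Hochberg adjustment over all 12588 genes within each comparison. Figures were drawn with matplotlib 3.10.9.

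The members and lists were chosen with earlier results of these data known. Named genes were the 6 highest and 6 lowest members past the threshold in each comparison, or the 3 of smallest p where fewer than 3 passed, with fixed core subunits, isoforms and members that are no ordinary subunit. Other called members were named after their values were seen. Scripts were tested on simulated data. Alternatives were other scalings, filters, probe set choices, array weights, technical and cell marker covariates, the replicate number as a block and removal of each array. The second-brightest probe set was added as an alternative after the data were seen. The number of arrays limits precision.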

Additional observations from a re-analysis of the deposited data

How the results depend on the processing

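Of 1072 values of named genes under other settings, 1005 stayed on their side of the threshold, 55 lost a call, 6 gained one and 6 reversed. A change of sign was counted as reversed only where the gene was called in the main fit or the other setting. Changes of sign without a call are therefore among the 1005. Ndufab1 with high Pb against control after exposure, for example, ranged from -0.246 to 0.029. With cell marker means as covariates Atp5d between doses after exposure became 0.065 (adjusted p = 0.751), Cox6b2 between collections 0.13 in controls (adjusted p = 0.606) and 0.23 with high Pb (adjusted p = 0.073), Uqcr11 0.095 in controls (adjusted p = 0.628) and Atp5b 0.016 with low Pb (adjusted p = 0.853). Ndufb11 with low Pb became 0.082 (adjusted p = 0.224) on its second-brightest probe set. Counts of members called also moved. High Pb against control after exposure gave 1 under quantile normalization, cyclic loess and cell markers, beside 0.5%, 0.508% and 1.87% of all genes. Low Pb against control gave 2 with array weights and 1 with 3' to 5' covariates. The doses after exposure gave 5 with the second-brightest probe set (beside 15.5% of all genes), 3 of them among the 10 of the main fit. They gave 2 with 18S ribosomal RNA and 0 with cell markers or hybridisation controls, beside 7.09%, 0.365% and 5.54% of all genes. After recovery they gave 1 with array weights, beside 0.755%. Between collections controls gave 49 with array weights, beside 53.7% of all genes. With cell markers the counts were 6, 30 and 19, beside 13.1%, 31.7% and 29.3% of all genes, with 4 members rising and 2 falling in all 3 dose groups. The number falling in all 3 was 15 after quantile normalization, 20 after centring, 19 after cyclic loess, 14 with array weights or 18S ribosomal RNA and 5 with 3' to 5' covariates. The cause of these moves was not tested.

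With each array left out in turn, the counts ranged from 0 to 1 for low Pb against control after exposure, from 5 to 17 between doses after exposure, from 21 to 37 in controls, 45 to 51 with low Pb and 42 to 49 with high Pb between collections, from 14 to 22 for members rising at all doses and from 6 to 12 for those falling. All other dose comparisons and interactions stayed at 0. Of 4824 values of named genes 42 lost a call, 2 gained one and 0 reversed.

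The replicate numbers were not shown to pair the samples: 3 of 7 control, 7 of 15 low Pb and 4 of 13 high Pb pairs correlated above 0.1. In 1, 3 and 0 cases a sample correlated best with its own number. With the replicate number as a random block the counts were 10 between doses after exposure and 31, 49 and 45 between collections. As a fixed block it gave 9 and 29 for the doses and the control collections, and 1 member for low Pb against control. Beside these stood 17.8%, 35.2% and 1.78% of all genes.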
